A study of Mus musculus with 2 samples.

Results

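Angiopoietins and vascular endothelial growth factors were followed at the RNA level across the mononuclear cells of mouse quadriceps and diaphragm. The 9 genes were given as a list, out of 27998 genes counted: the Tie receptors Tek and Tie1, the angiopoietins Angpt1, Angpt2 and Angpt4, and the growth factors Vegfa, Vegfb, Vegfc and Vegfd. Each had at least 1 UMI in the cells kept from each library (9 of 9 in quadriceps, 9 of 9 in diaphragm). A UMI (unique molecular identifier) is a tag that counts 1 captured RNA molecule once.

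The study dissociated quadriceps, a limb muscle, and diaphragm, the main breathing muscle, of C57BL/6J mice with collagenase B and dispase II, sorted the mononuclear cells by light scatter and sequenced them on the 10x Chromium platform, with 1 library per muscle. All mice were of this 1 inbred strain, no treatment or genotype differed, and the labels gave no age. Cells of 5 animals were pooled for each library and the animals cannot be told apart afterwards, so no value below has a replicate, no test between the muscles was possible, and muscle, pool of animals and library cannot be told apart. Every interval is a 95% interval of counting error alone.

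Tie receptors are receptor tyrosine kinases best known from endothelium, the cells that line blood and lymph vessels. ANGPT1, made by cells around the vessel, activates TEK (also called TIE2) and steadies the vessel wall, ANGPT2 can block or activate the same receptor depending on the setting, and TIE1 is a partner receptor that binds no angiopoietin on its own with high affinity. VEGFA acts on blood vessels through KDR and FLT1, and VEGFB binds FLT1. VEGFC and VEGFD act on lymphatic vessels through FLT4, and VEGFC, once processed, also acts on KDR. Fibro-adipogenic progenitors (FAPs) are the PDGFRA-positive connective tissue cells of muscle, and Tek is also known as a gene of some FAPs.

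The files held 5159 barcodes (50854519 UMIs, median 9719) for quadriceps and 2499 barcodes (28545242 UMIs, median 11853) for diaphragm, and the libraries shared 5 barcode sequences. After a minimum of 1000 UMIs and an upper limit per library, 5010 and 2430 cells were kept. FAPs were cells with at least 1 Pdgfra and at least 50 Dcn UMIs, and there were 2234 in quadriceps and 2004 in diaphragm. Endothelial cells, set by at least 3 of Pecam1, Cdh5, Cldn5 and Esam, numbered 46 and 6, and smooth muscle cells, set by at least 5 Myh11 UMIs with at least 2 of Cnn1, Lmod1, Actg2 and Synpo2, 1160 and 42. The other classes of at least 30 cells in quadriceps were 211 B, 164 Schwann, 151 satellite, 119 T, 74 NK, 73 tenocyte and 63 macrophage or monocyte cells, and in diaphragm 59 T and 45 B cells. Cells that passed several gates (131 and 4) or none (578 and 244) were set apart. No gate used any of the 9 genes. Levels are in CPM, the UMIs of a gene in a class per 1000000 UMIs of that class. They come from the 3′ ends of transcripts and were compared between cells for 1 gene, not between genes. The endothelial cells were shallow, at a median of 2707.5 UMIs. Of markers that no gate used, Col1a1 was at 2790 and 3162 CPM in FAPs against 33.1 in quadriceps endothelial cells. Col1a1 was higher still in quadriceps tenocytes, at 17106 CPM, so it does not set FAPs apart from them. Acta2 was at 28016 and 17715 CPM in smooth muscle, and the endothelial gene Egfl7 had 254 UMIs in the 46 endothelial cells of quadriceps.

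On the GRCm38 build, Tek lay at chr4:94739289-94874976 on the plus strand and Tie1 at chr4:118471191-118490061 on the minus strand. Angpt1 lay at chr15:42424723-42676977, Angpt2 at chr8:18690263-18741562 and Angpt4 at chr2:151911210-151945337. Vegfa lay at chr17:46016993-46032369, Vegfb at chr19:6982473-6987651, Vegfc at chr8:54077606-54187096 and Vegfd, named Figf in the files, at chrX:164373378-164402650. Angpt2 sits inside the gene Mcph1 and shares no exonic base with it. Angpt1 shares 737 exonic bases with the antisense gene Gm17473, which had 20 UMIs in quadriceps FAPs and 3 in diaphragm FAPs, and whether counting used the strand is not given in the sources used here. The other 7 genes overlapped no annotated gene.

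RefSeq promoters (GRCm38.p6) were matched for 7 of the 9 genes. The 250 bases before the transcription start of 3 of them are shown because FAPs of the libraries differed in opposite directions in Tek and Vegfc and were alike in Vegfa, as given further on. They read 5′ to 3′ on the strand of the gene, plus for Tek and Vegfc and minus for Vegfa (the upstream start of its 2 entries), and capitals mark matches, on either strand, to a GC box (GGGCGG), the core of a hypoxia response element (ACGTG), an AP-1 site (TGANTCA), an E-box (CANNTG) or a TATA box (TATAAA).
Tek, chr4:94739039-94739288: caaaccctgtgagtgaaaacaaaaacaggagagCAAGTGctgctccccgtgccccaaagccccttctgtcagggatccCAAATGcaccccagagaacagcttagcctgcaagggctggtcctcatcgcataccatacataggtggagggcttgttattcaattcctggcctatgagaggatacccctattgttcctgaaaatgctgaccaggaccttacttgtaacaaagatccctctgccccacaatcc
Vegfc, chr8:54077282-54077531: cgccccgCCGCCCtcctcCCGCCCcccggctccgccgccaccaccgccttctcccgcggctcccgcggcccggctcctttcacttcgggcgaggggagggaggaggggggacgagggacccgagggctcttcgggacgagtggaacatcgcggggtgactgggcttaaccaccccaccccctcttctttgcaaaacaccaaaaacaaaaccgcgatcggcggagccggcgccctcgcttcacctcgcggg
Vegfa, chr17:46032378-46032627: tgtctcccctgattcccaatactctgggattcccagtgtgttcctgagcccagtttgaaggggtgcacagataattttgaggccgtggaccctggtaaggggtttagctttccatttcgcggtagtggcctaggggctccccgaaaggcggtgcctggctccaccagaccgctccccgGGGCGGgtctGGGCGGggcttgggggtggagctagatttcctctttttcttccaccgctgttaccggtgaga
The Tek window held 2 E-box matches and no match to the other letters. The Vegfc and Vegfa windows held 2 GC box matches each and no other match. GC content was 51.2% for Tek, 71.6% for Vegfc and 59.2% for Vegfa. Among 32841 RefSeq promoter windows of the same length, 32.7% held a GC box match, 66.2% an E-box, 16.6% the hypoxia core, 12.4% a TATA box and 6.75% the AP-1 letters. A match is a run of letters and no evidence of binding.

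The first question was which cells of muscle carried each gene. In quadriceps, endothelial cells had the highest level of the receptors and of Vegfc, FAPs of Angpt1, Vegfa and Vegfd, and smooth muscle of Vegfb. In diaphragm, where 6 endothelial cells were too few to rank, FAPs had the highest level of Tek, Vegfa, Vegfc and Vegfd, and smooth muscle of Angpt1, Angpt2, Angpt4 and Vegfb, with intervals for Angpt1, Angpt2 and Vegfd that overlapped those of the next class. FAPs held most Tek UMIs of both libraries, and in diaphragm they held most UMIs of all genes. Over all 11822 genes with at least 100 UMIs in these classes of quadriceps, 3.01% were highest in FAPs, 5.22% in smooth muscle and 2.57% in endothelial cells with intervals apart from the next class. Of the 8 listed genes at that depth, Tek and Vegfc met this for endothelial cells, Vegfb for smooth muscle and Angpt4 for tenocytes, the last on UMIs mostly of 1 cell, and none met it for FAPs.

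Tek, the receptor of the angiopoietins, was detected in endothelial cells and in FAPs. In quadriceps it stood at 198 CPM in endothelial cells (133.9 to 283 CPM, 30 UMIs) and at 106 CPM in FAPs (102 to 109.7 CPM, 2589 UMIs). Satellite cells, the muscle stem cells, had 24.4 CPM (15.1 to 37.2 CPM, 21 UMIs) and smooth muscle 1.14 CPM (19 UMIs). The intervals of endothelial cells, FAPs, satellite cells and smooth muscle did not overlap, in that order, while Schwann cells (4.27 CPM, 4 UMIs) overlapped smooth muscle. FAPs held 85.5% of all Tek UMIs of kept quadriceps cells and 96.3% of those of diaphragm, where their level was 50.8 CPM (48.1 to 53.7 CPM, 1312 UMIs). Of the UMIs of all genes in kept cells, FAPs held 24531099 of 50741165 in quadriceps and 25801507 of 28408039 in diaphragm. The Tek share of diaphragm was thus near the FAP share of all its UMIs. Smooth muscle of diaphragm had no Tek UMI, which allows up to 6.25 CPM, and its 6 endothelial cells had none either.

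Free RNA in the suspension can give UMIs to cells that do not make a gene, and lymphocytes, which should lack Tek, show that level. No Tek UMI was found in 404 B, T and NK cells of quadriceps, which allows up to 0.743% of such cells, nor in 110 of diaphragm. With every cell thinned to 1000 UMIs, 9.67% of quadriceps FAPs (8.47% to 10.97%) and 4.44% of diaphragm FAPs (3.58% to 5.44%) had a Tek UMI. Unthinned, at medians of 10649 and 12571 UMIs, the shares were 49.2% and 35.4%, against 0% in the lymphocytes at medians of 3527 and 5122.5 UMIs. Satellite cells carried 21 Tek UMIs where their 119 Dcn UMIs would bring 0.585 at the ratio of Tek to Dcn in FAPs. Tenocytes, with 18724 Dcn UMIs of their own, had no Tek UMI. Cells just under the FAP gate, with 20 to 49 Dcn UMIs, had Tek at 147 CPM in quadriceps (76 cells) and 65.3 CPM in diaphragm (57 cells), and cells just inside it, with 50 to 79, at 142 CPM (123 cells) and 73.7 CPM (38 cells).

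Tie1, the partner receptor, followed the endothelial gate far more narrowly. It stood at 456 CPM in endothelial cells of quadriceps (355 to 578 CPM, 69 UMIs, in 30 of 46 cells) and had 11 UMIs in 5 of the 6 endothelial cells of diaphragm. FAPs had 2 Tie1 UMIs in quadriceps and 3 in diaphragm, or 0.0815 and 0.116 CPM. From endothelial cells to FAPs of quadriceps, Tek thus went from 198 to 106 CPM and Tie1 from 456 to 0.0815 CPM.

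**Figure D1:**
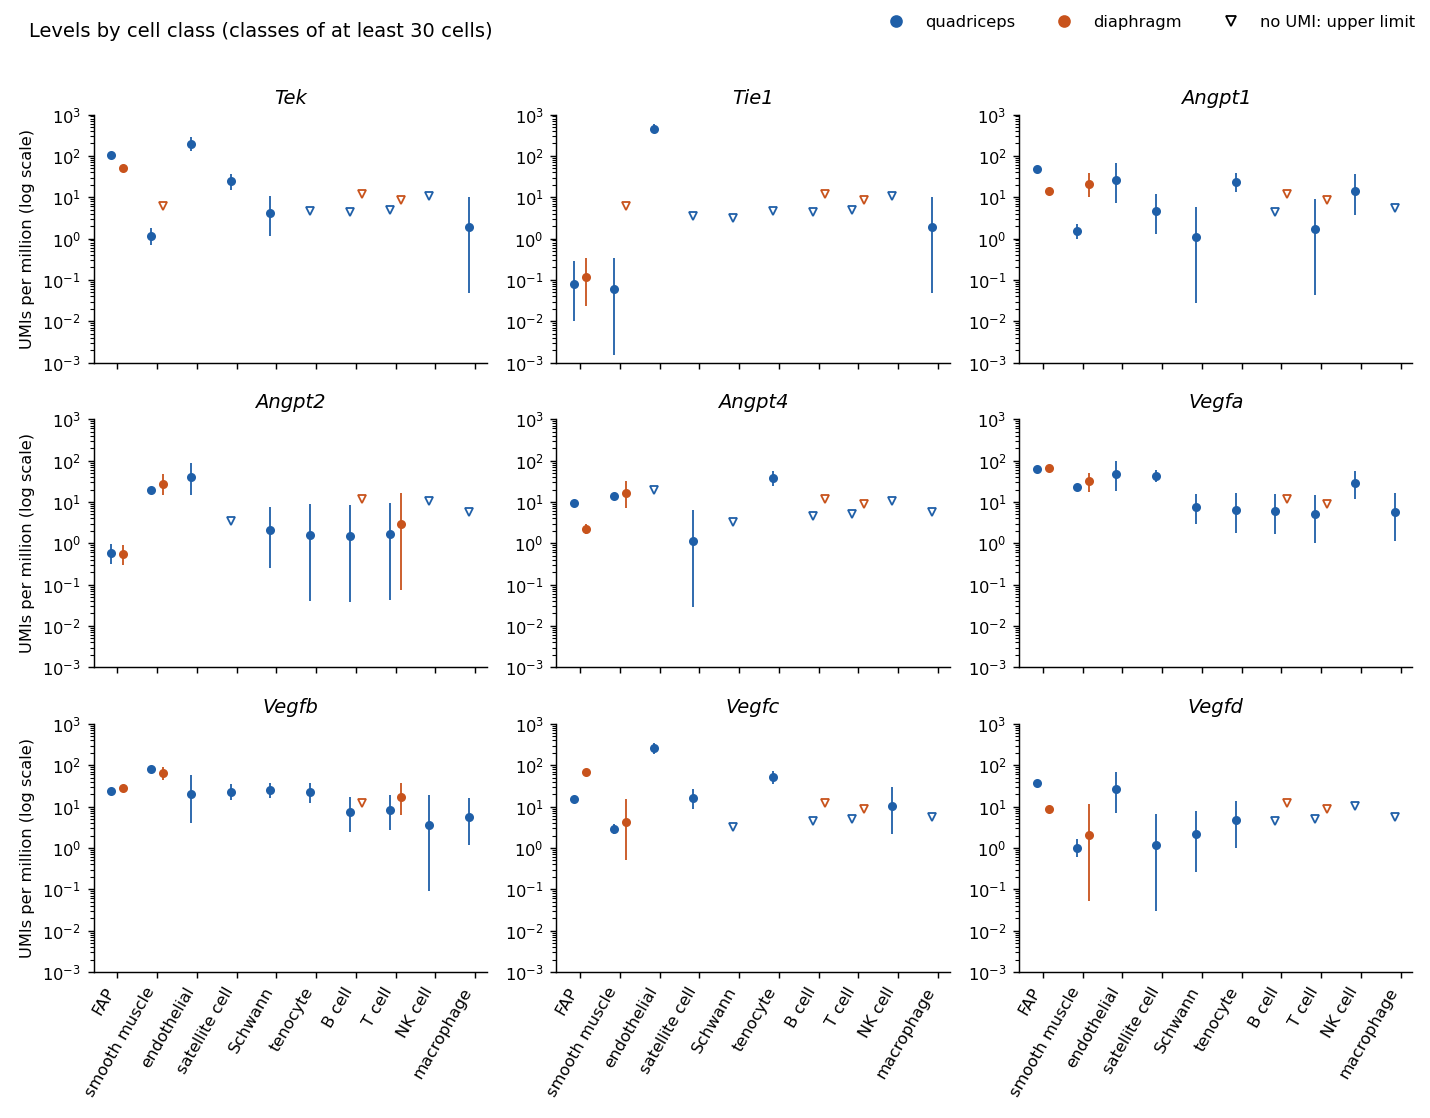
CPM (log scale) of the 9 genes in each class of at least 30 cells, with blue for quadriceps and orange for diaphragm, bars for 95% counting intervals and open triangles for the upper limit where no UMI was found. Tie1 is high in endothelial cells, at 456 CPM, and Tek is at 198 CPM there and at 106 and 50.8 CPM in FAPs.

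Angpt1, the activating ligand, was highest in FAPs of quadriceps. Its level was 48.8 CPM there (46.0 to 51.6 CPM, 1196 UMIs), 26.5 CPM in endothelial cells (4 UMIs, with 3 of them in 1 cell) and 23.8 CPM in tenocytes (13.3 to 39.3 CPM, 15 UMIs). Smooth muscle of quadriceps, the wall of larger vessels, had 1.502 CPM (0.972 to 2.22 CPM). In diaphragm the FAPs had 14.0 CPM (12.5 to 15.5 CPM, 360 UMIs) and the 42 smooth muscle cells 20.8 CPM (9.99 to 38.3 CPM), where 5 of 10 UMIs came from 1 cell and 10.9 CPM were left without it. The FAP and endothelial intervals of quadriceps overlapped, as did those of FAPs and smooth muscle in diaphragm.

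Angpt2, the context-dependent ligand, was higher in smooth muscle than in FAPs of both libraries. Smooth muscle of quadriceps had 19.7 CPM (17.6 to 22.0 CPM) and held 83.0% of the Angpt2 UMIs of that library, with 328 of 395. Of the UMIs of all genes there, smooth muscle held 16643837 of 50741165. Endothelial cells had 39.7 CPM (14.6 to 86.4 CPM) from 6 UMIs, an interval that overlapped that of smooth muscle. Those 6 UMIs were in 3 cells, all with lymphatic markers, as given further on. The 6 pericyte-gated cells of quadriceps, too few to rank, read 211 CPM (68.5 to 492 CPM) from 5 UMIs. Diaphragm smooth muscle had 27.1 CPM (14.4 to 46.3 CPM, 13 UMIs). In FAPs Angpt2 stayed at 0.571 and 0.543 CPM, with 14 UMIs in each library.

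Angpt4, a further TEK ligand, was spread over stromal classes. It stood at 13.8 CPM in smooth muscle (12.03 to 15.7 CPM, 229 UMIs) and at 9.54 CPM in FAPs (8.36 to 10.8 CPM, 234 UMIs) of quadriceps. Tenocytes read 38.1 CPM, but 15 of their 24 UMIs came from 1 cell, and without it the level was 14.8 CPM. In diaphragm, smooth muscle had 16.7 CPM (7.19 to 32.8 CPM, 8 UMIs) and FAPs 2.25 CPM (1.71 to 2.91 CPM, 58 UMIs).

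The VEGF ligands divided between the classes. Vegfa had its highest level among the larger classes in FAPs, at 63.9 CPM in quadriceps (60.8 to 67.1 CPM) and 64.6 CPM in diaphragm (61.6 to 67.8 CPM), with satellite cells at 42.9 CPM (30.2 to 59.1 CPM) and smooth muscle at 23.6 CPM (21.3 to 26.0 CPM) in quadriceps. Vegfb was highest in smooth muscle, at 80.5 CPM in quadriceps (76.3 to 84.9 CPM) and 64.6 CPM in diaphragm (43.9 to 91.7 CPM), against 24.1 and 28.2 CPM in FAPs. The order of Vegfa and Vegfb between FAPs and smooth muscle was thus opposite, and in each library the intervals of these classes did not overlap for either gene. By shares of cells thinned to 1000 UMIs, 7.33% of quadriceps smooth muscle cells and 2.60% of FAPs had a Vegfb UMI, and 2.33% and 6.22% a Vegfa UMI, against 0.743% of lymphocytes for each gene. Unthinned, the shares were 62.7% and 22.2% for Vegfb and 25.9% and 38.4% for Vegfa. Endothelial cells read 46.3 CPM of Vegfa from 7 UMIs, an interval (18.6 to 95.4 CPM) that overlapped that of FAPs.

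Vegfc, a lymphatic growth factor, had its highest level in quadriceps endothelial cells, at 258 CPM (183 to 353 CPM, 39 UMIs). Tenocytes followed with 52.4 CPM (36.1 to 73.6 CPM), where 9 of 33 UMIs were from 1 cell, and FAPs had 15.7 CPM (14.2 to 17.3 CPM, 385 UMIs). In diaphragm FAPs the level was 70.7 CPM (67.4 to 74.0 CPM, 1823 UMIs), which was 94.7% of that library's Vegfc UMIs. That share was near background, since FAPs held 25801507 of the 28408039 UMIs of all genes there. They also held 94.6% of its Vegfa UMIs and 90.5% of its Vegfb UMIs. Vegfd, the second lymphatic factor, was a FAP gene with 38.2 CPM in quadriceps (35.8 to 40.7 CPM, 936 UMIs) and 8.76 CPM in diaphragm (7.65 to 9.98 CPM, 226 UMIs). Endothelial cells of quadriceps read 26.5 CPM of Vegfd from 4 UMIs, an interval (7.21 to 67.8 CPM) that overlapped that of FAPs.

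The 46 endothelial cells of quadriceps fell into 12 with UMIs of at least 3 of the lymphatic markers Prox1, Lyve1, Mmrn1, Ccl21a and Pdpn and 34 without. Tek and Vegfc had intervals apart between these sets. Angpt2 rested on 6 UMIs and on the limit of 3 counts given to 0 UMIs, so no separation is read from it. The intervals of the other listed genes overlapped. All 39 Vegfc UMIs were in the 34 cells under 3 lymphatic markers, in 20 of them, at 417 CPM (296 to 570 CPM), while the 12 lymphatic-like cells had none, which allows up to 52.1 CPM. Those 34 cells also held all 59 UMIs of Sox17, all 95 of Sema3g and all 32 of Gja5, which are arterial markers. Hey1, a further arterial marker, had 24 UMIs in them and 5 in the lymphatic-like cells, with intervals that overlapped. Tek was at 289 CPM in the 34 cells (190 to 420 CPM) and at 52.1 CPM (10.7 to 152 CPM, 3 UMIs) in the lymphatic-like cells. Tie1 did not separate the sets, with 460 CPM (333 to 619 CPM) and 451 CPM (295 to 661 CPM). All 6 Angpt2 UMIs were in 3 lymphatic-like cells, 3 of them in 1 cell.

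The VEGF receptors marked the same division. Flt4, the receptor of VEGFC and VEGFD, had 45 of its 49 endothelial UMIs in the 12 lymphatic-like cells, and Kdr had 37 of 40. Flt1, the receptor of VEGFA and VEGFB, had all 97 in the other 34 cells. The coreceptor Nrp2 had all 77 UMIs in the lymphatic-like cells and Nrp1 all 44 in the others. Of the 6 endothelial cells of diaphragm, 5 were lymphatic-like and held 16 Flt4, 12 Kdr and 10 Tie1 UMIs but no Tek and no Vegfc UMI. The muscles could not be compared in endothelium, since diaphragm had 1 cell without the lymphatic markers.

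**Figure D2:**
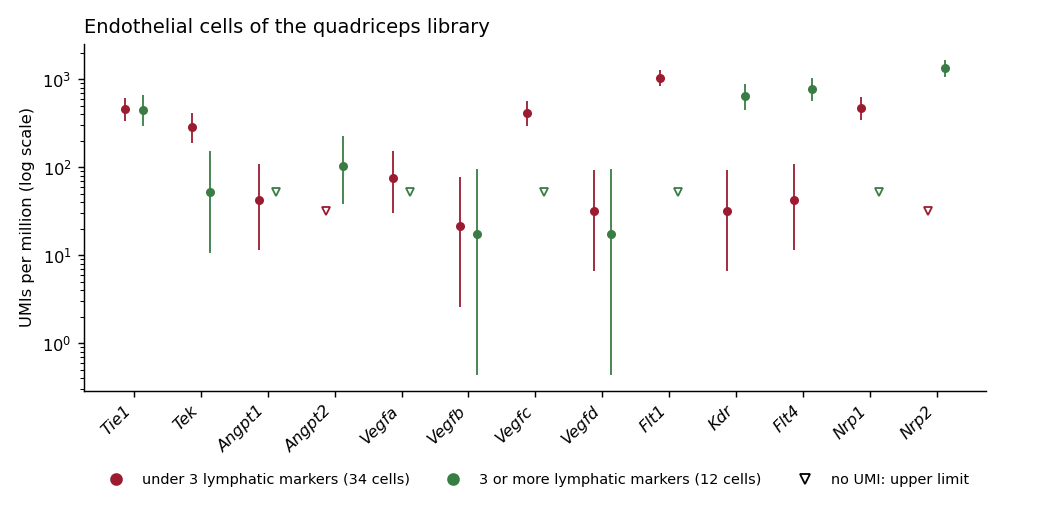
CPM (log scale) of Tie receptors, ligands and VEGF receptors in the 46 endothelial cells of quadriceps, split into 12 cells with at least 3 lymphatic markers (green) and 34 others (red), with 95% counting intervals and open triangles for upper limits. Vegfc, Tek, Flt1 and Nrp1 are high in the red set, Kdr, Flt4 and Nrp2 in the green set, and Tie1 is alike in both at 460 and 451 CPM.

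Smooth muscle of quadriceps came in 3 clusters of at least 30 cells, and the ligands were nearly even over the larger of them. A cluster of 586 cells led by Junb, Fos and Atf3 and one of 475 cells led by Actg2, Nov and Timp4 had Vegfb at 80.6 and 82.8 CPM, Angpt2 at 21.6 and 17.4 CPM, Angpt4 at 12.3 and 16.6 CPM and Vegfa at 23.5 and 22.7 CPM. A further 93 cells, with Rgs5, Pi16, Dcn, Mfap5 and Col3a1 among the leading genes, most of them genes of FAPs, had a median of 51.2% mitochondrial UMIs and Vegfb at 48.9 CPM (32.5 to 70.6 CPM, 28 UMIs). Rgs5 was in 6 of these 93 cells, with 125 of its 203 UMIs in 1 cell. Mitochondrial RNA was high in smooth muscle as a whole (medians of 17.2% in quadriceps and 18.5% in diaphragm), and 1156 of the 1160 and all 42 cells were over 5%, so a limit there leaves almost no smooth muscle to measure.

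The second question was how FAPs of the muscles compared. Vegfc was higher in FAPs of diaphragm, and Tek, Angpt1, Angpt4 and Vegfd were higher in FAPs of quadriceps, while Vegfa had a ratio of 1.01. A gene was called when it passed 2-fold (log2 ratio with 1 CPM added to each level) and its larger level of both libraries reached 50 CPM. Of the 3 listed genes at that level, Vegfc was called higher in diaphragm, where 3.62% of 3313 genes were, Tek was called higher in quadriceps, where 2.9% were, and Vegfa was not called. With the floor lowered to 5 CPM, a step added after the values were seen, 7 of the 9 genes could be called. Vegfc was then called higher in diaphragm, against 3.09% of 10217 genes, and Tek, Angpt1, Angpt4 and Vegfd higher in quadriceps, against 3.14%. The median log2 ratio over those genes was -0.10. The list was drawn up with earlier results of these data known, so its share is not set against the background as a test.

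Vegfc was at 15.7 CPM in quadriceps FAPs and 70.7 CPM in diaphragm FAPs, a ratio of 4.50 (4.03 to 5.04) and a log2 ratio of 2.10. After thinning, 1.61% of quadriceps FAPs (1.13% to 2.22%) and 7.39% of diaphragm FAPs (6.28% to 8.62%) had a Vegfc UMI, and no lymphocyte of either library did at that depth. Unthinned, the shares were 14.4% and 46.3%. The most Vegfc UMIs in 1 diaphragm FAP was 17, and the level without that cell was 70.0 CPM.

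Tek lay at the 2-fold limit. It was 2.08-fold (1.94 to 2.22) higher in quadriceps FAPs, with a log2 ratio of diaphragm over quadriceps of -1.04. With 10 CPM added to each level in place of 1 the log2 ratio was -0.93, and with each FAP subcluster weighted equally it was also -0.93, so the call at 2-fold ended in both.

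Angpt1 went from 48.8 to 14.0 CPM, a 3.49-fold (3.10 to 3.94) higher level in quadriceps FAPs. Angpt4 went from 9.54 to 2.25 CPM, or 4.24-fold (3.17 to 5.76), on 234 and 58 UMIs, and its log2 ratio of -1.70 became -0.67 with 10 CPM added, which ended the call. Vegfd went from 38.2 to 8.76 CPM, or 4.36-fold (3.76 to 5.06). Vegfa had a ratio of 1.01 (0.944 to 1.08) and Vegfb of 1.17 (1.05 to 1.30), diaphragm over quadriceps. Tie1 and Angpt2 were too low in FAPs for a ratio to be read, with 2 and 3 and 14 and 14 UMIs.

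**Figure D3:**
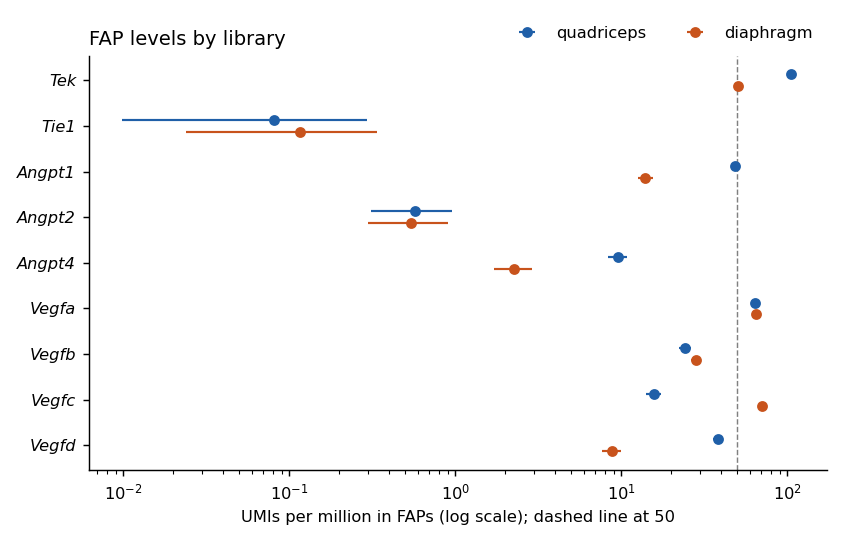
CPM (log scale) of the 9 genes in FAPs of quadriceps (blue, 2234 cells) and diaphragm (orange, 2004 cells), with 95% counting intervals, and a dashed line at the floor of 50 CPM. Vegfc is the gene with a clearly higher diaphragm level (70.7 against 15.7 CPM), and Angpt1, Angpt4 and Vegfd lie to the left in diaphragm.

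The libraries also differed in immediate early and muscle fibre RNA, and where this came from was not tested. The 6 immediate early and stress genes Fos, Junb, Jun, Egr1, Atf3 and Cyr61 summed to 1791 CPM in quadriceps FAPs and 11792 CPM in diaphragm FAPs, and 6 muscle fibre genes to 9.66 and 22.6 CPM. Among FAPs with at most 0.5% of UMIs from the immediate early set (2070 in quadriceps and 510 in diaphragm), the ratios of Vegfc, Tek, Angpt1 and Vegfd were about as large or larger, and that of Angpt4 was 3.45-fold (2.07 to 6.15) in place of 4.24-fold. Vegfc was at 15.4 and 68.9 CPM, a ratio of 4.48 (3.88 to 5.18), Tek at 109 and 52.6 CPM, Angpt1 at 48.9 and 11.4 CPM and Vegfd at 39.0 and 3.38 CPM. Among FAPs over that limit (164 and 1494) Vegfc had a ratio of 3.65 (2.64 to 5.21) and Angpt1 of 0.314 (0.247 to 0.403). Tek had a ratio of 0.728 (0.606 to 0.881) there, at 69.1 and 50.3 CPM, so its 2-fold call was lost among these cells. Vegfd was 2.72-fold (1.98 to 3.69) higher in quadriceps there, against 11.5-fold (7.49 to 18.7) among FAPs within the limit. The part of fibre RNA in these ratios was not tested.

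FAPs were split into subclusters with the 9 genes and 46 pathway genes left out, and 7 of them reached 50 cells in a library. They are described here by leading genes, and their sizes are not compared. In quadriceps, 5 of the 9 genes spanned over 4-fold between the highest and the lowest subcluster (Tek, Angpt1, Angpt4, Vegfc and Vegfd), and 4 did in diaphragm (Tek, Angpt4, Vegfc and Vegfd), with 1 CPM added to each level. Of all genes with at least 5 CPM in their highest subcluster, which 7 of the 9 had, 21.9% spanned as much in quadriceps and 10.2% in diaphragm. Those genes include the ones the clustering used, so the shares are background only. The lowest values of Angpt4, Vegfc and Vegfd in quadriceps were 0, 1 and 1 UMI in a subcluster of 52 cells. Over the 6 subclusters of at least 50 cells in both libraries, the same 5 genes spanned over 4-fold in quadriceps, against 13.6% of genes.

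Tek and Vegfd were highest in the same FAPs. In the subcluster led by Sbsn, Krtdap and Dmkn (330 and 150 cells), Tek was at 231 CPM in quadriceps and 101 CPM in diaphragm and Vegfd at 119.6 and 44.3 CPM. The subcluster led by Ccl2, Stmn4 and Cd55 (433 and 328 cells) came next for Tek, with 161 and 92.2 CPM. These subclusters also had the highest levels of Fbn1 and Dpp4 in both libraries. Apart from the 52 Angptl7 and Apod FAPs of quadriceps (8.33 CPM, 4 UMIs), Tek was lowest in the FAPs led by Clu, Prg4 and Comp of quadriceps (565 cells, 15.04 CPM) and in those led by Thbs4, Col8a1 and Mfap4 of diaphragm (524 cells, 12.6 CPM).

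Angpt1 had another order. It was highest in quadriceps in the FAPs led by C4b, Gdf10 and Inmt (89.0 CPM, 79.8 to 98.9 CPM, 341 cells) and the Clu and Prg4 FAPs (76.2 CPM, 69.3 to 83.7 CPM) and lowest in the Sbsn FAPs (9.25 CPM, 6.55 to 12.7 CPM). In diaphragm the C4b FAPs were again highest (24.3 CPM), and the Ccl2 and Stmn4 FAPs lowest (7.01 CPM). The order of quadriceps, with low Angpt1 where Tek was high, did not hold throughout diaphragm, where the Sbsn FAPs, with the most Tek, had 15.2 CPM of Angpt1 and the Thbs4 FAPs, with the least Tek, 10.1 CPM. Angpt4 was centred on the C4b and Gdf10 FAPs, at 41.3 CPM in quadriceps (158 of 234 FAP UMIs, with 25 in 1 cell) and 6.03 CPM in diaphragm (38 of 58 UMIs). Of the quadriceps FAPs with a Tek UMI, 23.0% also had an Angpt1 UMI, against 38.2% of FAPs with no Tek UMI, and 29.6% had a Vegfd UMI against 10.7%. The Vegfd shares of diaphragm FAPs were 9.73% and 5.71%. None of these shares was thinned, and deeper cells have more UMIs of every gene.

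Vegfc was highest in the FAPs led by Thbs4, Col8a1 and Mfap4 in diaphragm (134.8 CPM, 126 to 144 CPM, 933 of 1823 FAP UMIs). The same FAPs held 337 of 400 Kdr UMIs of diaphragm FAPs, at 48.7 CPM (43.6 to 54.2 CPM), while the 68 such cells of quadriceps had none, which allows up to 3.31 CPM. Tnmd, a tendon gene, was at 236 CPM in these diaphragm FAPs. In quadriceps the Thbs4 FAPs did not stand out in Vegfc, at 24.3 CPM (15.2 to 36.7 CPM, 22 UMIs). The Clu and Prg4 FAPs had 25.4 CPM and the C4b FAPs 24.9 CPM there, with intervals that overlapped. Vegfc was lowest in the Sbsn FAPs of both libraries, with 2.44 CPM (10 UMIs) and 11.4 CPM (24 UMIs), apart from 1 UMI (2.08 CPM) in the Angptl7 and Apod FAPs of quadriceps. Vegfa was highest in the Sbsn FAPs of diaphragm (141 CPM, 125 to 158 CPM) and in the 52 Angptl7 and Apod FAPs of quadriceps (102 CPM, 75.5 to 135 CPM). The interval of those 52 cells overlapped others of quadriceps, among them that of the Ccl2 and Stmn4 FAPs (96.6 CPM, 88.3 to 105.6 CPM). Vegfb was the most even, between 13.2 and 36.3 CPM in quadriceps and between 17.0 and 33.8 CPM in diaphragm.

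**Figure D4:**
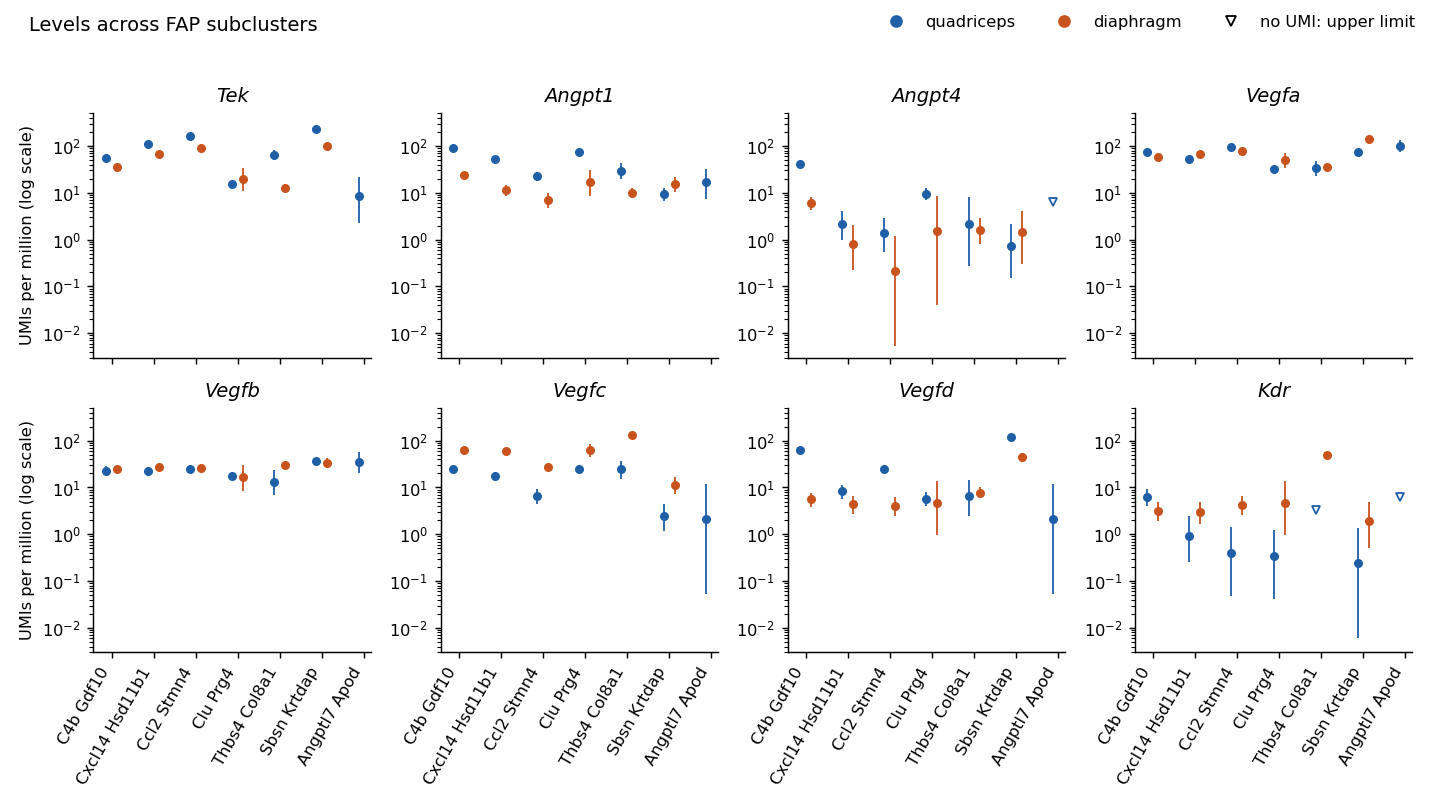
CPM (log scale) of 7 of the genes and of Kdr across FAP subclusters of at least 50 cells in a library, each named by 2 leading genes, with blue for quadriceps, orange for diaphragm, 95% counting intervals and open triangles for upper limits. Tek and Vegfd peak in the Sbsn FAPs, Angpt1 and Angpt4 in the C4b FAPs, and Vegfc and Kdr in the Thbs4 FAPs of diaphragm.

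Within subclusters, the higher Vegfc of diaphragm was seen in 6 of 6, with ratios from 2.50 to 5.56 and every interval above 1. Angpt1 was lower in diaphragm in 5 of 6, each past 2-fold, and in the Sbsn FAPs it was at 9.25 CPM in quadriceps and 15.2 CPM in diaphragm. Tek was lower in 5 of 6, with 2 past 2-fold, and Vegfd in 5 of 6, with 4 intervals below 1. The Clu and Prg4 FAPs, of which diaphragm had 53, gave a Tek ratio of 1.34 with an interval that held 1 (0.686 to 2.41). With equal weight for the 6 subclusters, Vegfc was at 16.8 and 59.9 CPM, Angpt1 at 46.7 and 14.2 CPM and Vegfd at 38.0 and 11.8 CPM.

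**Figure D5:**
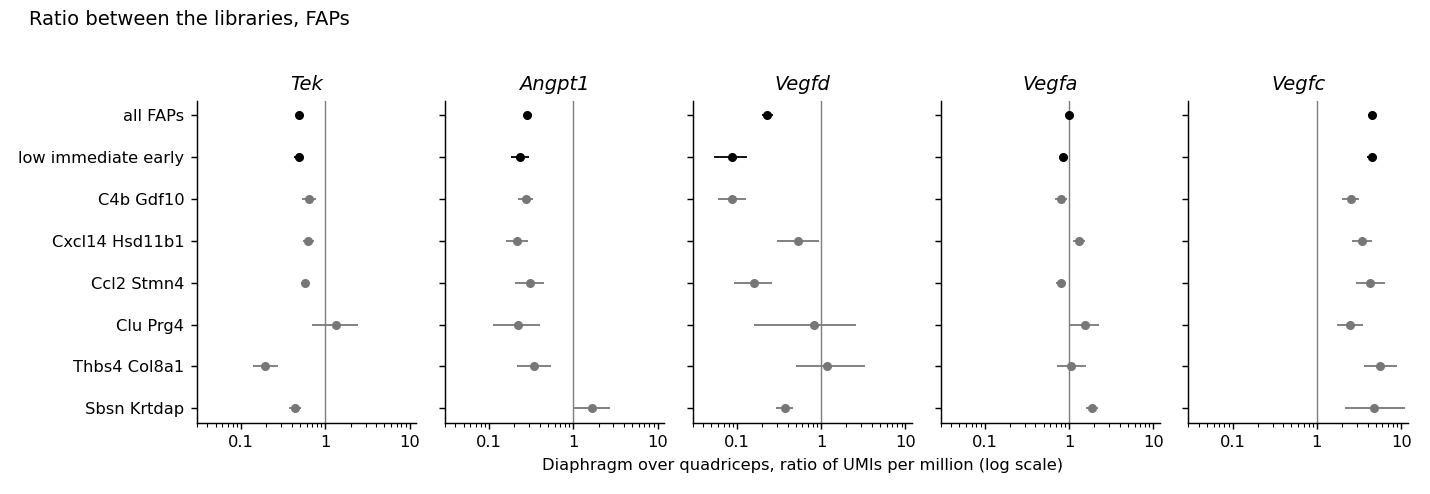
Ratio of diaphragm over quadriceps levels (log scale, line at 1) of 5 genes in all FAPs, in FAPs with at most 0.5% immediate early UMIs, and in 6 subclusters named by 2 leading genes, with 95% counting intervals. Vegfc lies right of 1 in every subset shown, from 2.50 to 5.56 in the subclusters, and Vegfa lies near 1 in all FAPs, at 1.01.

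The study described FAP subtypes marked by Fbn1 and by Lum, which it found by clustering. Here FAPs were split without clustering, by which of these genes had more UMIs in a cell, a rule that sets a range and no subtype (965 Fbn1-high and 1222 Lum-high FAPs in quadriceps, 424 and 1548 in diaphragm), where 10.4% and 7.44% of FAPs lay within 2 UMIs of the boundary. Tek was higher in Fbn1-high FAPs of both libraries, at 169 against 47.8 CPM in quadriceps (ratio 3.54, 3.23 to 3.89) and 99.5 against 36.2 CPM in diaphragm (2.75, 2.46 to 3.07). The study reported TEK in mouse FAPs only in its FBN1+ subtype. By the rule used here, which is not that clustering, Lum-high FAPs held 604 Tek UMIs in quadriceps and 700 in diaphragm, and Fbn1-high FAPs 1946 and 602. Vegfd had ratios of 3.01 (2.60 to 3.49) and 2.25 (1.70 to 2.97). Angpt1 was higher in Lum-high FAPs, 2.35-fold (2.07 to 2.68) in quadriceps and 1.40-fold (1.07 to 1.86) in diaphragm. Vegfc was too, 2.20-fold (1.75 to 2.77) and 2.62-fold (2.25 to 3.06). Vegfa leaned to Fbn1-high FAPs, at 75.7 against 53.2 CPM and 83.3 against 57.8 CPM, and none of these genes changed direction between the libraries.

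The 46 other genes of the pathway were listed in 7 sets. Of 22 with at least 50 CPM in FAPs of the higher library, 2 were past 2-fold higher in diaphragm and 2 in quadriceps, against 3.62% and 2.9% of all genes. The first were Ccbe1, which helps ADAMTS3 to process VEGFC, at 14.1 CPM in quadriceps and 54.3 CPM in diaphragm, and Angptl1, an angiopoietin-like secreted protein, at 385 and 1253 CPM. The others were Timp3, a metalloproteinase inhibitor that also blocks KDR, at 659 and 304 CPM, and Col18a1, the parent of endostatin, at 74.8 and 29.0 CPM. At the floor of 5 CPM, Kdr (1.35 and 15.5 CPM) and the repulsive guidance factor Sema3a (3.18 and 8.33 CPM) were also called higher in diaphragm, 4 of 30 genes in that direction and 2 in the other, against 3.09% and 3.14% of all genes.

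By set, 1 of 4 VEGFC and VEGFD processing genes at 50 CPM was called higher in diaphragm, and Plat, a protease, was at 198 and 326 CPM. None of 4 Tie modulators was called, with Svep1, an extracellular protein known to bind TIE1, at 242 and 203 CPM and Thbd, thrombomodulin of the vessel surface, at 166 and 136 CPM. None of 9 hypoxia regulators and targets at 5 CPM was called, with Hif1a at 62.2 and 52.4 CPM and Adm at 117 and 133 CPM, and the median log2 ratio of that set was -0.12. Pgk1 of that set lay near the limit, at 10.5 and 20.8 CPM (ratio 1.98, 1.70 to 2.30). Epas1 went the other way, at 22.6 and 14.2 CPM (ratio 0.63, 0.55 to 0.72). None of the 6 genes of the endothelial angiogenic response reached 5 CPM in FAPs. Nrp1 was at 231 and 143 CPM and Pgf, another FLT1 ligand, at 31.6 and 58.2 CPM, and neither passed 2-fold.

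In the other classes of quadriceps, Ptprb, the phosphatase that opposes TEK, was at 1125 CPM in endothelial cells and at 1.22 CPM in FAPs. Epas1, the hypoxia factor of vessels, was at 1032 CPM in endothelial cells and 511 CPM in smooth muscle. Dll4, a Notch ligand induced by VEGFA, was at 225 CPM in endothelial cells and at 0.12 CPM (2 UMIs) in smooth muscle. Pgf was at 39.5 CPM in smooth muscle, and Thbs1, an angiogenesis inhibitor, at 265 CPM there and 1332 CPM in tenocytes.

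Over the 14 groups of a class in a library with at least 30 cells, the 3 genes most like each listed gene were taken by Pearson's r of log2 CPM among 11395 genes. For Angpt2 these were Esam (r = 0.96), an adhesion gene of endothelium that smooth muscle also had, 8430408G22Rik and Scn3a (r = 0.93 each). For Angpt4 they were Mettl24 (r = 0.97), Pdgfc (r = 0.97), a platelet-derived growth factor, and Lrrc27 (r = 0.95), and for Vegfc Igfbp3 (r = 0.91), Glis3 (r = 0.91) and Mcf2l (r = 0.90). For Vegfd they were Mill2 (r = 0.96), Npr1 (r = 0.95), the receptor of atrial natriuretic peptide, and Cldn15 (r = 0.94), and for Tek Usp35 (r = 0.96), Exoc3l4 (r = 0.95) and Thsd1 (r = 0.94). For Angpt1 they were Fn3krp (r = 0.92), Tle6 and Armcx4 (r = 0.89 each), for Vegfa Tmem167b (r = 0.89), Brpf3 (r = 0.88) and Fzd4 (r = 0.87), and for Vegfb Cbx6 (r = 0.97), Endog (r = 0.96) and Cog7 (r = 0.95). The 14 groups share libraries and differ in depth, and these values are descriptions only.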

How the data were processed

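Quadriceps and diaphragm cells were measured by 3′ single-cell RNA sequencing, with 1 library per muscle. The authors deposited a matrix of raw UMI counts per gene and barcode for each library, made with Cell Ranger 3.0.0 on mm10 and followed by Seurat according to the submitters' processing notes. The annotation release and the strand setting of the counting are not given in the sources used here.

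Barcodes with fewer than 1000 UMIs (149 in quadriceps, 67 in diaphragm) or lying more than 3 scaled median absolute deviations above their library's median on the log10 scale (0 and 2) were left out. No mitochondrial limit was applied, since 56.7% and 31.6% of kept cells were over 5%. Scrublet called 95 barcodes (1.84%) of quadriceps and 3 (0.12%) of diaphragm, and doublets were not removed, but cells that passed several gates were set apart. Gate minimums for classes other than FAPs were set after marker counts were read. UMIs were summed per class and library and given as CPM, with exact Poisson intervals, exact conditional binomial intervals for ratios and Clopper-Pearson intervals for shares, all at 95%. A count of 0 was given the upper limit of 3 counts. These intervals cover counting error only. FAPs of both libraries were clustered (Leiden, resolution 0.5) on 2000 variable genes, scaled within each library, and 10 principal components, without the listed and pathway genes.

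Text named the 9 genes in every class, pathway genes past 2-fold between libraries in FAPs or highest in a class, and the 3 genes most like each listed gene with at least 100 UMIs. Other genes named, such as receptor, arterial and FAP marker genes, were chosen after their values were seen. The listed genes and pathway lists were chosen with earlier results of these data known. The floor of 5 CPM, the immediate early limit, CPM without mitochondrial UMIs, equal weight of subclusters and the range over subclusters of at least 50 cells in both libraries were chosen after seeing the data. The calling steps were tested on simulated counts with counting error alone and folds well past the limit. That test could not show how they behave with variation between libraries or with folds near 2-fold. Python 3.11.15, numpy 2.4.6, scipy 1.17.1, pandas 2.3.3, scanpy 1.11.5, leidenalg 0.10.2 and matplotlib 3.10.9 were used.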

Additional observations from a re-analysis of the deposited data

How the results depend on the processing

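No called result changed direction. Of 243 levels recomputed under the alternatives, 237 moved by less than their counting interval and 6 by more. Of 70 log2 ratios of FAPs, 67 kept their side of the 2-fold limit, and 3 fell below it, Angpt4 (-0.67) and Tek (-0.93) with 10 CPM added and Tek (-0.93) with subclusters weighted equally. Both counts include alternatives that could hardly move a FAP value. The upper UMI limit had left out 0 quadriceps and 2 diaphragm FAPs, and Scrublet called 3 and 0 FAPs. Over 10 alternatives the log2 ratio ran from -1.11 to -0.93 for Tek, from -2.01 to -1.29 for Angpt1, from -1.84 to -0.67 for Angpt4, from -0.23 to 0.25 for Vegfa, which was not called and whose sign changed, from 0.15 to 0.45 for Vegfb, from 1.65 to 2.12 for Vegfc and from -3.19 to -1.36 for Vegfd.

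The number of listed genes called higher in quadriceps FAPs was 1, and it was 4 at the floor of 5 CPM, 2 by the mean of per-cell CPM, 2 without mitochondrial UMIs in the total, 0 with 10 CPM added and 0 with equal weight of subclusters. Pathway genes called higher in diaphragm were 2, and 4 at the floor of 5 CPM. Both floor changes let more genes be called by construction. The number of genes highest in quadriceps FAPs was 3, and it was 1 by the mean of per-cell CPM and 8 under the 5% mitochondrial limit, which left under 30 endothelial and under 30 smooth muscle cells and so no level for those classes. Genes past 4-fold over FAP subclusters were 5 in quadriceps and 4 in diaphragm, and 0 and 0 when FAPs were split into Fbn1-high and Lum-high cells, a split with fewer groups. Unthinned, the share of FAPs with a Tek UMI was 49.2% in quadriceps and 35.4% in diaphragm, and with a Vegfc UMI 14.4% and 46.3%, since deeper cells show more genes. Where no cause is given it was not tested.

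No paired analysis was possible because there is 1 library per muscle. Depth limits the 46 and 6 endothelial cells and the 42 smooth muscle cells of diaphragm, where levels rest on a few UMIs.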

Other observations

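Cells that passed no gate differed from FAPs in Angpt1 and Tie1 of quadriceps, while Tek and Vegfa were near the levels of FAPs there. The 578 such cells of quadriceps had a median of 3104 UMIs, Dcn at 9057 CPM, Tek at 106 CPM (93.0 to 119 CPM, 257 UMIs) and Vegfa at 69.0 CPM (58.9 to 80.2 CPM). Their Angpt1 was lower than in FAPs, at 16.4 CPM (11.7 to 22.4 CPM) against 48.8 CPM, their Vegfc was at 9.85 CPM (6.31 to 14.7 CPM) against 15.7 CPM, and their Angpt2 was at 2.46 CPM against 0.571 CPM, the intervals of Vegfc and Angpt2 overlapping those of FAPs. The 244 of diaphragm had Vegfc at 78.2 CPM (63.1 to 95.8 CPM, 93 UMIs) and Tek at 41.2 CPM (30.5 to 54.5 CPM). Tie1 had 19 UMIs in 7 of the quadriceps cells without a gate, at 7.80 CPM against 0.0815 CPM in FAPs.

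Pericyte-gated cells were too few to describe, with 6 in quadriceps and 1 in diaphragm. The 6 cells held 5 Angpt2 UMIs (211 CPM, 68.5 to 492 CPM), with 3 of them in 1 cell and 109 CPM left without it. In macrophages or monocytes of diaphragm (9 cells), all 10 Vegfa UMIs came from 1 cell.

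In diaphragm FAPs, 176 of the 927 cells with a Vegfc UMI also had a Kdr UMI (19.0%), against 6.59% of FAPs without a Vegfc UMI. In quadriceps FAPs the shares were 2.18% (7 of 321 cells) and 0.836%. Of diaphragm FAPs with a Tek UMI, 12.1% also had an Angpt1 UMI, against 14.1% of the rest. These shares were not thinned, and deeper cells have more UMIs of every gene.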
